A study of Mus musculus with 8 samples.

Results

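Vip nuclei are nuclei of GABAergic neurons that hold transcripts of Vip, the gene of vasoactive intestinal peptide. They were chosen by a gate on unique molecular identifiers (UMIs), each of which counts 1 captured transcript. A nucleus that the authors annotated as a neuron entered the set with at least 2 UMIs of Gad1 and Gad2 together, at least 2 UMIs of Vip, and at most 1 UMI each of Slc17a7, Rgs9, Pvalb and Sst. This left 404 Vip nuclei, or 0.652% of the 61949 nuclei and part of 45141 neuron nuclei. Without the conditions on Vip, Pvalb and Sst, the gate held 8197 nuclei, called inhibitory nuclei here. The same gate with Pvalb or Sst in the place of Vip gave 250 Pvalb nuclei and 252 Sst nuclei for comparison.

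The nuclei came from frozen brain hemispheres of 6-month-old C57BL6/J mice, with cerebellum and olfactory bulb removed. The 4 genotypes were WT, Cnp-/-, 5xFAD and Cnp-/- 5xFAD, with 2 libraries each and no treatment. Cnp-/- mice are constitutive nulls for the myelin enzyme CNP, which oligodendrocytes make, and the 5xFAD transgenes, which include mutant human APP, are driven by the Thy1 promoter in neurons, so neither allele is aimed at Vip neurons. The labels do not give the number of animals in a library. The study's reporting summary says that a pair of animals was pooled per replicate in its single-cell work, while its methods state pooling for another dataset only. The p-values measure the spread between libraries.

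Vip interneurons arise in the caudal ganglionic eminence of the embryo and make up a small class of cortical and hippocampal GABAergic cells. Many of them inhibit other interneurons, above all those that contain somatostatin, and thereby release pyramidal cells from inhibition. They respond to acetylcholine and serotonin, and subsets carry calretinin (Calb2), cholecystokinin (Cck) or choline acetyltransferase (Chat). Pvalb and Sst interneurons come from the medial ganglionic eminence and use other transcription factors.

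The 8 libraries held 6801 to 8824 nuclei and 68905044 to 82399061 UMIs. In mature oligodendrocytes, Cnp was at 283 and 321 CPM (UMIs of a gene per 1000000 UMIs of the profile) in WT, 219 and 265 in 5xFAD, 23.1 and 23.2 in Cnp-/-, and 23.98 and 32.8 in Cnp-/- 5xFAD, so the libraries followed their Cnp labels. In Vip nuclei Cnp was between 3.55 and 20.0 CPM and did not pass the filter on low counts. Libraries shared 454 cell barcodes, carried by 909 nuclei, of which 6 were Vip nuclei. WT replicate 2 stood apart in its makeup, with 101 Pvalb nuclei against 15 to 29 in the other libraries and 89 Sst nuclei against 5 to 48. WT replicate 1 and Cnp-/- replicate 2 held 2068 and 1908 inhibitory nuclei against 574 to 884 in the others.

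Each library gave 27 to 65 Vip nuclei. In the order of replicates 1 and 2, there were 43 and 63 in WT, 27 and 59 in Cnp-/-, 61 and 34 in 5xFAD, and 52 and 65 in Cnp-/- 5xFAD. Summed over these nuclei, a library held 200398 to 598129 UMIs, with the fewest in Cnp-/- replicate 1. A Vip nucleus had a median of 7281.5 UMIs and 3102 detected genes, and ranged from 1764 to 74340 UMIs. Vip itself had a median of 4 UMIs and at most 34. In the summed profiles, Vip was at 392 and 873 CPM in WT, 579 and 468 in Cnp-/-, 458 and 569 in 5xFAD, and 447 and 521 in Cnp-/- 5xFAD. The highest value was in WT replicate 2, and the genotypes overlapped. Since the gate used Vip, these levels are a description.

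Most Vip nuclei shared the profile of 1 deposited cluster. Of the 404 nuclei, 313 (77.5%) lay in cluster 18, 66 (16.3%) in clusters 0 and 13, 14 (3.47%) in cluster 23 and 11 (2.72%) elsewhere. Adarb2, an RNA-editing-enzyme homologue that marks interneurons of caudal origin, was at 17604 CPM in the Vip nuclei of cluster 18, and all 313 of them held it. In the 66 nuclei of clusters 0 and 13 Adarb2 was at 6330 CPM, the median depth was 14236.5 UMIs against 6704 in cluster 18, and transcripts of oligodendrocytes, precursors, astrocytes and microglia took 0.424% of UMIs against 0.100%. The 14 nuclei of cluster 23 went against the label Vip interneuron. They held 21 UMIs of Adarb2 (264 CPM) and none of Prox1, beside 830 CPM of Meis2 and 302 CPM of Calb2. Of these 14 nuclei, 8 came from Cnp-/- replicate 2, 5 from WT replicate 1 and 1 from Cnp-/- 5xFAD replicate 1. In the order of replicates 1 and 2, clusters 0 and 13 held 5 and 3 Vip nuclei in WT, 4 and 11 in Cnp-/-, 7 and 3 in 5xFAD, and 13 and 20 in Cnp-/- 5xFAD, which makes 48 with and 18 without Cnp loss. The part played by nuclei of mixed content in clusters 0 and 13 was not tested.

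**Figure D1:**
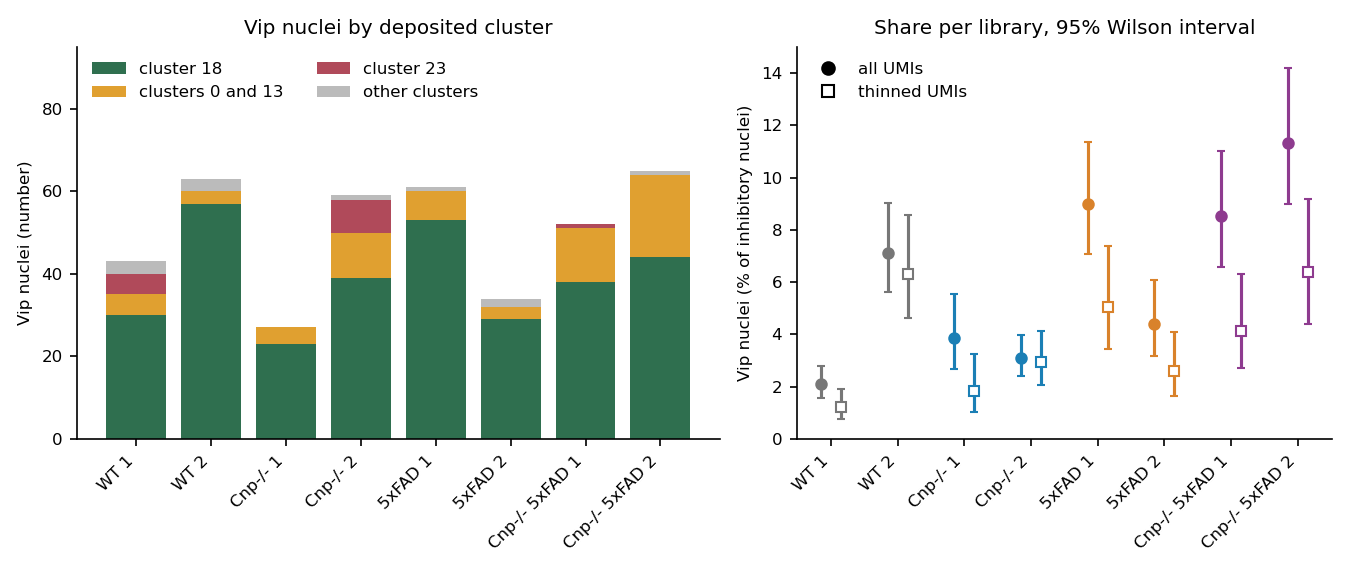
Left, number of Vip nuclei in each of the 8 libraries (WT, Cnp-/-, 5xFAD and Cnp-/- 5xFAD, replicates 1 and 2), with bars split by deposited cluster. Right, Vip nuclei as a percentage of inhibitory nuclei in each library, with 95% Wilson intervals. Filled circles are as counted. Open squares are after thinning to 3845 UMIs, without the 4513 neuron nuclei that held fewer. Cluster 18 holds most Vip nuclei in every library, and the share runs from 2.08% in WT replicate 1 to 11.3% in Cnp-/- 5xFAD replicate 2.

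Nuclei near the threshold of the gate differed by degrees. Adarb2 was at 10828 CPM in the 100 nuclei with exactly 2 Vip UMIs, of which 71.0% lay in cluster 18. In the 220 nuclei with 1 Vip UMI, just outside, it was at 6182 CPM and 42.3% lay in cluster 18. The 222 nuclei with 4 or more Vip UMIs were at 14804 CPM, and the 7060 nuclei that met all other conditions of the gate but had no Vip UMI were at 2465 CPM. A further 118 nuclei failed only the condition on Gad1 and Gad2 and had 12467 CPM of Adarb2, so the gate missed nuclei with this marker. The 98 nuclei that failed only on Slc17a7, the vesicular glutamate transporter of cortical excitatory neurons, had a median of 35513 UMIs and 3279 CPM of Adarb2.

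Vip nuclei were set against Pvalb and Sst nuclei of the same libraries to describe their identity. Of 8 tested genes of the caudal ganglionic list 7 were higher in Vip nuclei, and 6 of 12 tested genes of the medial ganglionic list were lower. Transmitter receptor genes went in both directions. A gene was called when it differed in the same direction from both classes, by edgeR's quasi-likelihood test with the library as a block and a Benjamini-Hochberg adjusted p under 0.05 in each contrast. The 7 genes of the gate were left out of all counts. Of 6316 genes tested, 409 were called higher in Vip nuclei (6.48%) and 342 lower (5.41%). With the same number of nuclei per class, 4407 genes were tested and fewer were called in each direction. A gene could pass the filter on low counts through the class where it was high, so the counts within the gene lists below describe the members that passed and no more.

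Of the 24 Vip class markers other than Vip, 22 had a UMI in Vip nuclei, 10 passed the filter, 8 were called higher and none lower. The median log2 fold change of the 10 was 4.23 against Pvalb nuclei and 2.38 against Sst nuclei, beside 0.00 over all genes in both contrasts. Some of the 10, such as Prox1 and Tac2, passed the filter through the Vip profiles, so these medians are a description. Adarb2 had a lowest value of 9498, a median of 13352 and a highest value of 18654 CPM over the 8 Vip profiles, while its means were 628 CPM in Pvalb and 203 CPM in Sst nuclei. Its log2 fold change was 5.09 (SE 0.49) against Pvalb and 6.35 (SE 0.53) against Sst nuclei (edgeR, adjusted p = 6.77e-09 and 5.88e-10). Prox1, a homeobox transcription factor that caudal interneurons keep after birth, ran from 150 over a median of 203 to 242 CPM, against means of 6.09 and 12.2 CPM. It had 745 UMIs in Vip, 37 in Pvalb and 34 in Sst nuclei, so it passed the filter through the Vip profiles, and its fitted log2 fold changes of 4.42 (SE 0.24) and 4.27 (SE 0.24) are a description. No Vip profile overlapped with any Pvalb or Sst profile for either gene, which held for 1.68% of all tested genes in this direction.

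Among the other called markers were the transcription factors Npas1 (100.0 CPM on average) and Nr2f2 (57.3 CPM), the growth factor Igf1 (352 CPM), the synaptic vesicle protein Synpr (1549 CPM) and the calcium-binding Caln1 (467 CPM). Tshz2 (log2 0.29 and 0.03) was tested and not called, and Mybpc1 was higher than in Sst nuclei (log2 4.85) but not than in Pvalb nuclei (log2 0.25, edgeR, adjusted p = 0.488). Markers with too few UMIs for the test included Htr3a, the ionotropic serotonin receptor subunit that defines the wider class, with means of 36.5, 0.17 and 1.33 CPM in Vip, Pvalb and Sst nuclei, and the chemokine Cxcl14 with 45.1, 4.68 and 0.84 CPM. Slc17a8 and Chrna2 had no UMI in Vip nuclei, and Rspo4 had 1.

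Among 8 tested genes of the caudal ganglionic eminence list, which shares Adarb2, Prox1, Npas1 and Nr2f2 with the marker list, 7 were called higher. They included Npas3 (2814 CPM in Vip nuclei, 563 in Pvalb and 1617 in Sst nuclei) and Cnr1, the cannabinoid receptor CB1 (289, 22.5 and 44.4 CPM). Reln, the gene of the secreted protein reelin, differed in opposite directions from Pvalb nuclei (log2 0.89) and Sst nuclei (log2 -2.38). Of 12 tested genes of the medial ganglionic eminence list, 6 were called lower and 1, the phosphodiesterase Pde3a, higher. Lhx6, the transcription factor that medial interneurons keep, was at 0 to 10.6 CPM in Vip profiles with a median of 1.77, against means of 44.3 in Pvalb and 83.4 in Sst nuclei. With 16 UMIs in Vip nuclei against 117 and 241, it passed the filter through the other classes, and no fold change is given. Sox6, a second such factor, ran from 33.4 over a median of 76.3 to 165 CPM against means of 713 and 906. Satb1, Nxph1, the potassium channel gene Kcnc2 and the calcium buffer Calb1 were also called lower. Nxph1 varied between Vip profiles, with 854 CPM in WT replicate 1 and 1282 CPM in Cnp-/- replicate 2. It was at 79.8 to 228 CPM in the other Vip profiles, and at 1295 CPM in the lowest Pvalb profile.

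**Figure D2:**
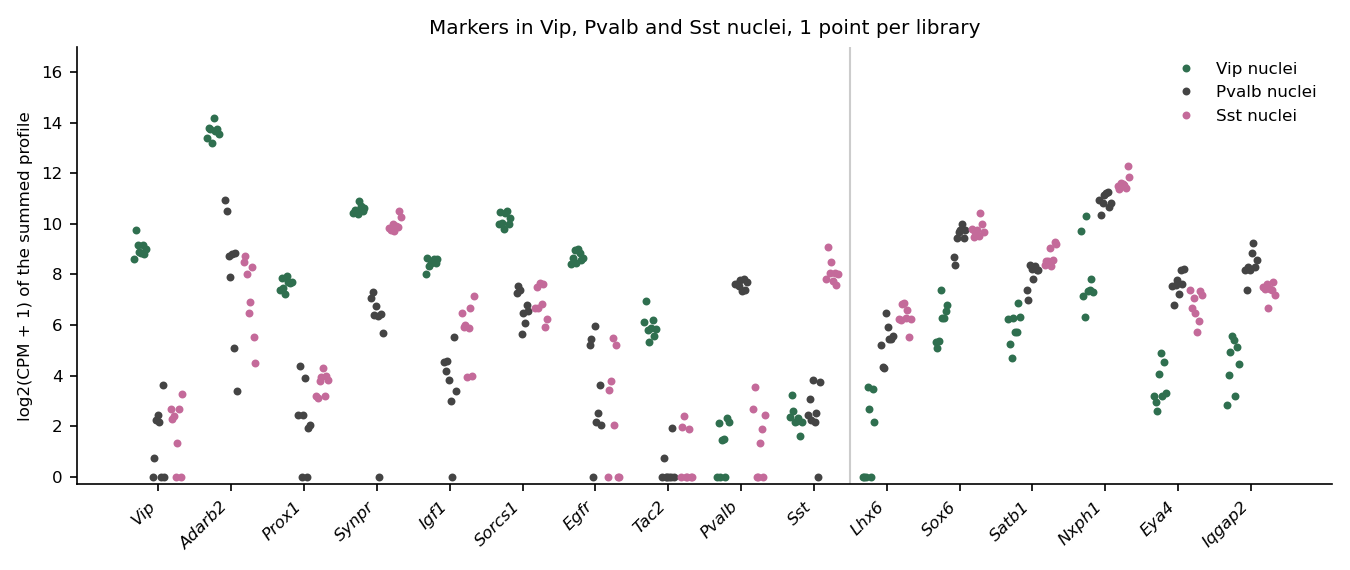
Level of selected genes as log2(CPM + 1) in the summed profiles of Vip, Pvalb and Sst nuclei, 1 point per library. Left of the vertical line are Vip, Pvalb and Sst, which the gate used, some listed Vip markers, and Egfr and Sorcs1. Genes right of it start with Lhx6. Egfr, Sorcs1, Eya4 and Iqgap2 are on no marker list and were picked from these data for large changes without overlap. Adarb2, Prox1 and Tac2 are higher in all 8 Vip profiles than in any Pvalb or Sst profile.

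The 10 genes that stood highest above both classes, ranked by the smaller of their fitted log2 fold changes, were Tac2, Adarb2, Prox1, Egfr, Fbln2, Rgs12, Gpd1, Adra1b, Sema5b and Sorcs1. For genes with few UMIs in a class, such as Tac2, the fitted value and hence the order depend on the prior count. Egfr, the epidermal growth factor receptor, ran from 336 over a median of 402 to 515 CPM against means of 20.3 in Pvalb and 13.1 in Sst nuclei. Sorcs1, a sorting receptor, was at 1183 CPM on average against 114 and 128. The 10 that stood lowest were Gm31218, 9630002D21Rik, Tmem132cos, Lhx6, Gm45025, Sox6, Tmem132c, Eya4, Moxd1 and Iqgap2. Eya4, a transcriptional coactivator, was at 4.99 to 28.4 CPM in Vip profiles against means of 205 in Pvalb and 115 in Sst nuclei. These 20 genes were picked among those whose Vip profiles did not overlap with a Pvalb or Sst profile, which held for 1.68% of the tested genes above and 1.38% below the other classes. Each call held under every alternative that tested the gene. Since the genes were picked for large changes without overlap, this is a description.

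Of 16 neuropeptide genes, all had a UMI in Vip nuclei and 1 passed the filter. This was Tac2, the gene of neurokinin B, which ran from 38.7 over a median of 57.6 to 122 CPM against means of 0.44 in Pvalb and 1.23 in Sst nuclei. It passed through the Vip profiles, and with 2 UMIs in all Pvalb and 5 in all Sst nuclei, and none in 6 Pvalb and 5 Sst profiles, its fitted fold changes depend on the prior count and are not given. A Tac2 UMI was found in 31.2% of Vip nuclei, 0.8% of Pvalb and 1.59% of Sst nuclei, although the Pvalb and Sst nuclei were deeper (medians of 11008.5 and 10580.5 UMIs). For Calb2 the shares were 21.0%, 5.2% and 7.14%. For the stress peptide gene Crh they were 9.65%, 0.8% and 0.397%, and for the opioid peptide gene Penk 7.92%, 3.2% and 2.78%. Chat, the acetylcholine-synthesizing enzyme, was found in 44 Vip nuclei (10.9%) and in 0 of 250 Pvalb and 0 of 252 Sst nuclei, which allows shares of up to 1.2% and 1.19%. These shares count nuclei with a UMI and were pooled over libraries.

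Calb2 and Cck were counted in each Vip nucleus. Only Calb2 was found in 83 Vip nuclei, only Cck in 34, both in 2 and neither in 285. In single libraries, 12.3% to 27.9% of Vip nuclei had a Calb2 UMI. A Cck UMI was found in 2.33% and 30.2% of Vip nuclei in WT, 0 of 27 and 1.69% in Cnp-/-, 11.5% and 0 of 34 in 5xFAD, and 11.5% and 3.08% in Cnp-/- 5xFAD. The counts of 0 allow shares of up to 11.1% and 8.82%. WT replicate 2, with 19 of 63 nuclei, stood apart from the other libraries and held 19 of all 36 Vip nuclei with Cck.

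**Figure D3:**
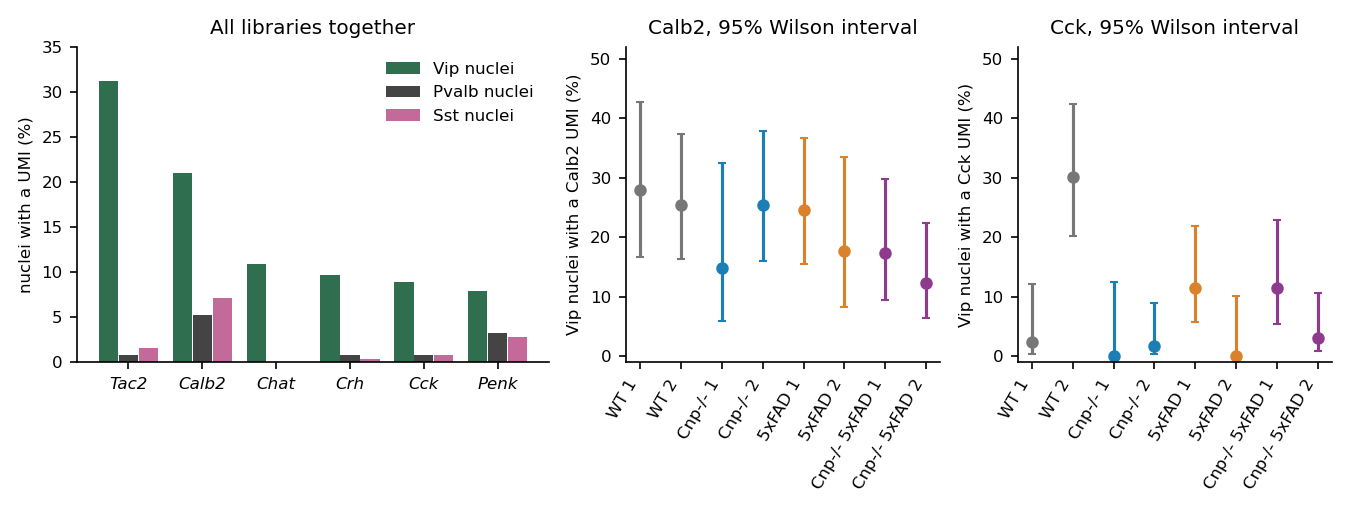
Left, percentage of all Vip, Pvalb and Sst nuclei with at least 1 UMI of 6 peptide, calcium-buffer and transmitter genes. Right, percentage of Vip nuclei with a UMI of Calb2 and of Cck in each library, with 95% Wilson intervals. The Cck share of WT replicate 2 is 30.2%, and the other 7 libraries lie between 0% and 11.5%.

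Of 28 listed receptors for acetylcholine, serotonin and noradrenaline, 10 were tested, of which 4 were called higher, 1 lower and 5 were not called. Adra1b, the alpha-1B adrenoceptor, ran from 125 over a median of 184 to 252 CPM, against means of 12.96 in Pvalb and 21.0 in Sst nuclei. At these levels it passed the filter through the Vip profiles, and its fitted log2 fold changes of 3.86 (SE 0.23) and 3.59 (SE 0.23) are a description. The serotonin receptor gene Htr2c was at 293 CPM on average against 90.3 and 80.3, Htr4 at 108 against 77.5 and 27.4, and the alpha-7 nicotinic receptor gene Chrna7 at 149 against 39.4 and 37.9. Htr2a was lower, at 12.2 against 45.9 and 47.9 CPM. Of 3 tested neuropeptide receptors, the delta opioid receptor gene Oprd1 was called lower (14.6 against 115 and 88.2 CPM) and none higher. Grpr, the receptor for gastrin-releasing peptide, had too few UMIs for the test, with means of 40.4, 0.26 and 0 CPM, and the receptors for VIP, Vipr1 and Vipr2, were at 10.9 and 12.3 CPM in Vip nuclei.

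Of 21 tested glutamate receptor genes, 5 were called higher and 5 lower. The higher ones were Gria2, Grik4, Grin2d, Grm8 and Grid1, and Grm8, a presynaptic metabotropic receptor, was at 589 CPM against 138 in Pvalb and 211 in Sst nuclei. The lower ones were the AMPA receptor genes Gria1, Gria3 and Gria4, the NMDA receptor gene Grin2a and the metabotropic Grm5, and Gria3 was at 241 CPM against 989 and 792. Among the GABA receptor genes Gabrb1 was called higher. Among the voltage-gated channel genes, Kcnb2, Kcnq5 and Cacna2d1 were called higher, and Kcnc2, Kcnq3, Cacna1a and Cacna2d2 were among those called lower. Kcnq5, an M-current channel, was at 1702 CPM against 452 and 395, and Kcnc2, a channel of fast spiking, was at 719 CPM against 2555 and 2255. Among the genes of GABA handling and interneuron regulation, Dlx1, Dlx6os1 and Gphn were called higher, Rbfox1 was called lower, and Slc32a1, the vesicular GABA transporter, was not called (30.2, 31.0 and 29.7 CPM).

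The immediate early gene Nr4a1 was higher (56.8 against 22.2 and 29.2 CPM), 1 of 2 tested. Among 16 tested genes of amyloid precursor processing, Aplp2 was higher and Apbb2 lower, while App was at 470 CPM against 416 in both other classes and was not called. None of 6 tested genes of the unfolded protein response and none of 9 heat shock genes was called. These counts stand beside 6.48% of all tested genes called higher and 5.41% called lower. Of the mitochondrially encoded transcripts none could be tested, and 359 of 404 Vip nuclei had no mitochondrial UMI. Of 11 listed genes of Vip neurons of the suprachiasmatic nucleus, 8 had a UMI in Vip nuclei, 2 were tested between classes and none was called. The peptide genes Avp and Nms and the transcription factor gene Six6 had no UMI, Grp had 2 and Prok2 had 7. The list summed to between 871 and 1582 CPM over the Vip profiles, most of it from Rora, a nuclear receptor, at 961 CPM on average in Vip, 1706 in Pvalb and 582 in Sst nuclei.

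Markers of other cells were measured in the same profiles. Of 5 tested oligodendrocyte markers, the myelin gene Mbp (181 CPM against 71.0 in Pvalb and 48.9 in Sst nuclei) and St18 were called higher in Vip nuclei, and of 5 tested astrocyte markers the glutamate transporter Slc1a2 (212 against 99.0 and 34.4 CPM) was called higher. The summed oligodendrocyte list was between 293 and 906 CPM over the Vip profiles, the astrocyte list between 469 and 1366, the microglia list between 64.9 and 183, and the endothelial list between 0 and 24.9. Tmem119 and Cldn5 had no UMI. Among excitatory neuron markers, Camk2a was called higher and Cux2 lower, and among striatal markers Bcl11b was lower. Their part in the differences between classes was not tested.

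Whether myelin dysfunction or the amyloid transgenes went with another number of Vip nuclei was asked by their share of inhibitory nuclei. The share was 2.08% and 7.13% in WT, 3.86% and 3.09% in Cnp-/-, 8.98% and 4.39% in 5xFAD, and 8.52% and 11.3% in Cnp-/- 5xFAD. The highest shares were in libraries with 5xFAD, but WT replicate 2 lay above 5xFAD replicate 2, so the groups overlapped. The mean was 8.31% ± 2.88 (SD, n = 4) with and 4.04% ± 2.18 without 5xFAD, a difference of 4.27 percentage points (two-sided exact permutation test over 70 relabellings, p = 0.0571, adjusted over 8 comparisons 0.457). After thinning to 3845 UMIs, which left out 4513 shallower neuron nuclei, the difference was 1.48 points (exact permutation p = 0.343). Without thinning, over all neuron nuclei, the difference was 0.243 points (exact permutation p = 0.286). Within cluster 18 the share of Vip nuclei was lower with 5xFAD, by 2.78 points. The 2 libraries with the most inhibitory nuclei, WT replicate 1 and Cnp-/- replicate 2, both lack 5xFAD and had the lowest shares. Of their inhibitory nuclei, 927 and 827 lay in cluster 7, against 0 to 38 in the other libraries. Cluster 13 held 347 and 371 of them, against 4 to 27, and cluster 23 held 223 and 177, against 3 to 27. The part of these clusters in the difference for 5xFAD was not tested. With Cnp loss the share was higher than without by 1.05 points (exact permutation p = 0.629). Over all neuron nuclei this difference was -0.111 points, and within cluster 18 it was -4.24 points. As a share of Vip, Pvalb and Sst nuclei together, Vip nuclei were 55.8% ± 12.6 with and 41.3% ± 12.1 without Cnp loss, a difference of 14.4 points (exact permutation p = 0.143), and for 5xFAD the difference was 6.26 points (exact permutation p = 0.600).

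The level of Vip over all neuron nuclei, which does not depend on the gate, was 4.69 and 11.3 CPM in WT, 5.10 and 7.17 in Cnp-/-, 7.37 and 4.68 in 5xFAD, and 7.26 and 8.52 in Cnp-/- 5xFAD. The groups overlapped, and the means differed by -0.01 CPM for Cnp loss and by -0.12 CPM for 5xFAD (exact permutation p = 1 and 0.886). Without WT replicate 2 these differences were 1.43 and 1.31 CPM, and over inhibitory nuclei they were 3.78 and 12.2 CPM. The share of Vip nuclei with Calb2 was 17.5% ± 5.69 with and 23.9% ± 4.39 without Cnp loss (n = 4 each, exact permutation p = 0.143, adjusted 0.571). For 5xFAD it differed by -5.42 points (exact permutation p = 0.229, adjusted 0.610). The difference of -6.42 points for Cnp loss was -3.03 points after thinning and -8.06 points for nuclei with at least 2 Calb2 UMIs. Here Vip nuclei were thinned to 4193 UMIs, which left out 41 shallower ones. The Cck share differed by -6.91 points for Cnp loss and -2.02 points for 5xFAD (exact permutation p = 0.543 and 0.914), and without WT replicate 2 these values were -0.523 and 5.18 points. After thinning they were -2.57 and -1.93 points. The smallest p that 4 against 4 libraries allow is 0.0286.

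The effect of Cnp loss (Cnp-/- and Cnp-/- 5xFAD against WT and 5xFAD), the effect of 5xFAD (5xFAD and Cnp-/- 5xFAD against WT and Cnp-/-) and their interaction were contrasts of 1 edgeR model with a mean for each genotype. Of 8648 genes tested, 2 were called for Cnp loss (0.0231%), both higher. For 5xFAD 2 were called (0.0231%), both lower. None was called for the interaction (0%), with 327 genes at an unadjusted edgeR p under 0.05 and none called by DESeq2 or limma-voom. The unadjusted counts were 555 genes for Cnp loss and 526 for 5xFAD. With 1 library left out the number of calls ranged from 0 to 22 for Cnp loss, with 22 without WT replicate 1, and from 0 to 54 for 5xFAD, with 54 without WT replicate 2 and 33 without Cnp-/- replicate 1. For each of the 4 called genes, the 4 libraries with and the 4 without the allele did not overlap. Among all tested genes, the libraries did not overlap for 1.67% higher and 1.76% lower with Cnp loss, and for 1.48% higher and 1.56% lower with 5xFAD.

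With Cnp loss, 6530403H02Rik, a long non-coding RNA (ENSMUSG00000098097, chr3:120604109-120886733 in mm10, minus strand), was at 120 and 66.9 CPM in Cnp-/- and 34.2 and 24.7 in Cnp-/- 5xFAD. It was at 4.12 and 3.34 CPM in WT and 5.33 and 20.0 in 5xFAD. The log2 fold change was 2.99 (SE 0.43, edgeR, adjusted p = 0.0173). These levels rest on 105 UMIs in 33 nuclei, of which 1 nucleus held 27. In cluster 18 there were 30 UMIs in 12 nuclei, of which 1 nucleus held 19, and these were too few for the test. The 66 nuclei of clusters 0 and 13, of which 48 came from libraries with Cnp loss, held 73 UMIs. The adjusted edgeR p was 0.0709 without 5xFAD replicate 1 and 0.0536 without Cnp-/- 5xFAD replicate 1, and the gene was not called by limma-voom (adjusted p = 0.148). It was below the filter with the exclusion genes of the gate (Slc17a7, Rgs9, Pvalb and Sst) at 0 UMIs and without nuclei of 5 or more glial UMIs. The latter setting left out 230 of the 404 Vip nuclei (56.9%). It kept 13 to 35 nuclei per library and tested 2727 genes against 8648.

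Cnksr2, a scaffold protein of postsynaptic Ras signalling (ENSMUSG00000025658, chrX:157821436-158043294, minus strand), was at 199.6 and 199 CPM in Cnp-/- and 238 and 226 in Cnp-/- 5xFAD. It was at 177 and 88.6 CPM in WT and 69.3 and 60.1 in 5xFAD, so WT replicate 1 lay nearest to the libraries with Cnp loss. The log2 fold change was 1.22 (SE 0.19, edgeR, adjusted p = 0.0334). Of its 592 UMIs, 367 lay in the 66 nuclei of clusters 0 and 13, where it was at 333 CPM against 83.2 in cluster 18. Of these 66 nuclei, 48 came from libraries with and 18 from libraries without Cnp loss. Within cluster 18 the fold change was 0.93 (edgeR, adjusted p = 0.623). The call was lost without Cnp-/- replicate 2 (edgeR, adjusted p = 0.210), 5xFAD replicate 1 (0.192), 5xFAD replicate 2 (0.0640), Cnp-/- 5xFAD replicate 1 (0.0569) or Cnp-/- 5xFAD replicate 2 (0.123). It was also lost without nuclei of 5 or more glial UMIs, which left 174 of the 404 Vip nuclei (log2 0.85, edgeR, adjusted p = 0.804). The same held with the same number of nuclei per library (log2 1.68, edgeR, adjusted p = 0.258). With the exclusion genes of the gate at 0 UMIs it was lost as well (log2 1.35, edgeR, adjusted p = 0.0816).

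With 5xFAD, Ndst4, an enzyme that modifies heparan sulfate (ENSMUSG00000027971, chr3:125404076-125728899, plus strand), was lower. It was at 124 and 75.2 CPM in WT and 39.9 and 54.6 in Cnp-/-, against 14.2 and 32.1 in 5xFAD and 8.06 and 1.77 in Cnp-/- 5xFAD. The log2 fold change was -2.79 (SE 0.36, edgeR, adjusted p = 0.00527). Of 165 UMIs, 29 lay in 1 nucleus and 55 in the 11 nuclei outside clusters 0, 13, 18 and 23. Ndst4 was at 312 CPM in these 11 nuclei and at 32.5 CPM in cluster 18. Of the 11, 6 lay in cluster 11, with 3 from WT replicate 1, 2 from WT replicate 2 and 1 from 5xFAD replicate 2. Cluster 8 held 3, with 1 each from Cnp-/- replicate 2, 5xFAD replicate 1 and Cnp-/- 5xFAD replicate 2. Cluster 25 held 1 from WT replicate 2, and cluster 40 held 1 from 5xFAD replicate 2. In cluster 18, where 1 nucleus held 24 of the 77 UMIs, the fold change was -2.21 (edgeR, adjusted p = 0.554). The call was lost without Cnp-/- replicate 2 (edgeR, adjusted p = 0.176), 5xFAD replicate 1 (0.0750) or Cnp-/- 5xFAD replicate 2 (0.0542), and by limma-voom (adjusted p = 0.210). It was also lost with at least 3 Vip UMIs (log2 -2.32, edgeR, adjusted p = 0.257) and with the exclusion genes of the gate at 0 UMIs (log2 -2.24, 0.387).

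Meis2, a homeobox transcription factor of striatal and olfactory neurons (ENSMUSG00000027210, chr2:115863064-116065839, minus strand), was also lower with 5xFAD. It was at 856 and 197 CPM in WT and 309 and 790 in Cnp-/-, against 33.8 and 136 in 5xFAD and 137 and 88.3 in Cnp-/- 5xFAD. The high values of WT replicate 1 and Cnp-/- replicate 2 fell in the libraries that held 13 of the 14 Vip nuclei of cluster 23. That cluster held 66 of the 1215 Meis2 UMIs, 47 of them in 1 nucleus. The log2 fold change was -2.59 (SE 0.42, edgeR, adjusted p = 0.0391), and in cluster 18 it was -2.85 (edgeR, adjusted p = 0.0894). Of all UMIs, 738 lay in clusters 0 and 13, with 115 in 1 nucleus, and 319 in cluster 18. The 20 Vip nuclei of cluster 13 alone held 499 Meis2 UMIs (1368 CPM, against 324 CPM in cluster 0). Of these 20 nuclei, 7 came from Cnp-/- replicate 2, 4 from WT replicate 1 and 0 to 3 from each other library. The part of cluster 13 in the difference for 5xFAD was not tested. The call was lost without Cnp-/- replicate 2 (edgeR, adjusted p = 0.305), 5xFAD replicate 1 (0.419), Cnp-/- 5xFAD replicate 1 (0.0718) or Cnp-/- 5xFAD replicate 2 (0.320). It was also not called by DESeq2 (adjusted p = 0.99996) or limma-voom (adjusted p = 0.149). In edgeR it was lost with the exclusion genes of the gate at 0 UMIs (log2 -2.90, adjusted p = 0.178), without nuclei of 5 or more glial UMIs (log2 -2.17, 0.992) and with the replicate number as a block (log2 -2.59, 0.170).

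**Figure D4:**
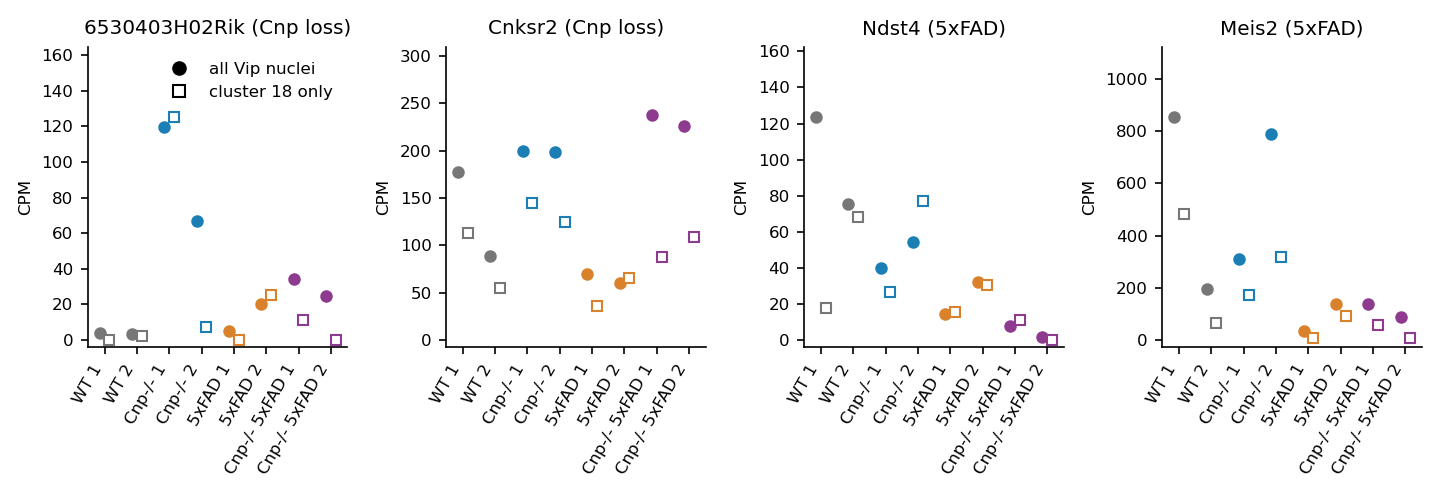
CPM of the 4 genes called for Cnp loss or 5xFAD in the summed Vip profile of each library, over all Vip nuclei (filled circles) and over those of cluster 18 only (open squares). Libraries with and without the allele do not overlap for the filled circles, and in cluster 18 Cnksr2, Ndst4 and Meis2 did not pass the threshold (log2 0.93, -2.21 and -2.85) and 6530403H02Rik could not be tested.

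Genes that followed by p-value did not pass. For Cnp loss these were Phactr1 (log2 0.81), Gm49678 (2.27) and the guidance factor Slit3 (1.12), each with an edgeR adjusted p of 0.106. In cluster 18 the value for Slit3 was -0.11. For 5xFAD they were Hs3st2 (-1.09), Adamts19 (-5.52) and Spon1 (-1.40), each with an edgeR adjusted p of 0.183. Adamts19, a secreted metalloprotease, had no UMI in 3 of the 4 libraries with 5xFAD, so its fitted value depends on the prior count. For the interaction, the gene with the smallest p was Cntnap5b (log2 1.56, edgeR, adjusted p = 0.528).

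No member of the 23 gene lists was called in any genotype contrast, where 0.0231% of all genes were called for Cnp loss, 0.0231% for 5xFAD and 0% for the interaction. The 17 Vip class markers tested had a median log2 fold change of -0.37 for Cnp loss and 0.20 for 5xFAD, beside -0.01 and 0.00 over all genes. The lowest adjusted edgeR p among them was 0.597 for Cnp loss, for Tac2 and Htr3a (log2 -0.71 and -0.97), and 0.644 for 5xFAD, for Calb2 (log2 -0.77). App was at 361 and 610 CPM in WT, 624 and 438 in Cnp-/-, 517 and 305 in 5xFAD, and 449 and 459 in Cnp-/- 5xFAD. The groups overlapped, and the log2 fold change for 5xFAD was -0.20 (edgeR, adjusted p = 0.952). Whether reads of the human transgene are counted as App was not tested. Thy1, whose promoter drives the transgenes, was at 0 to 45.1 CPM (log2 -1.04, edgeR, adjusted p = 0.890).

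The lists of transmitter receptors, channels, immediate early genes and protein stress had medians between -0.13 and 0.12 for Cnp loss and between -0.10 and 0.11 for 5xFAD. Among glial lists, the 8 oligodendrocyte markers tested had a median of 0.59 for Cnp loss and 0.35 for 5xFAD, and the 6 astrocyte markers 0.51 and 0.17. Mbp was at 86.6 and 130 CPM in WT, 103 and 201 in 5xFAD, 215 and 227 in Cnp-/-, and 216 and 270 in Cnp-/- 5xFAD. All 4 libraries with Cnp loss were above the others, which held for 1.67% of all tested genes in this direction. Mbp did not pass the test (log2 0.91, edgeR, adjusted p = 0.239). The summed oligodendrocyte list was at 676 to 823 CPM with Cnp loss and 293 to 906 CPM without, and over cluster 18 at 116 to 704 and 165 to 779 CPM. Its part in the effects of Cnp loss was not tested.

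**Figure D5:**
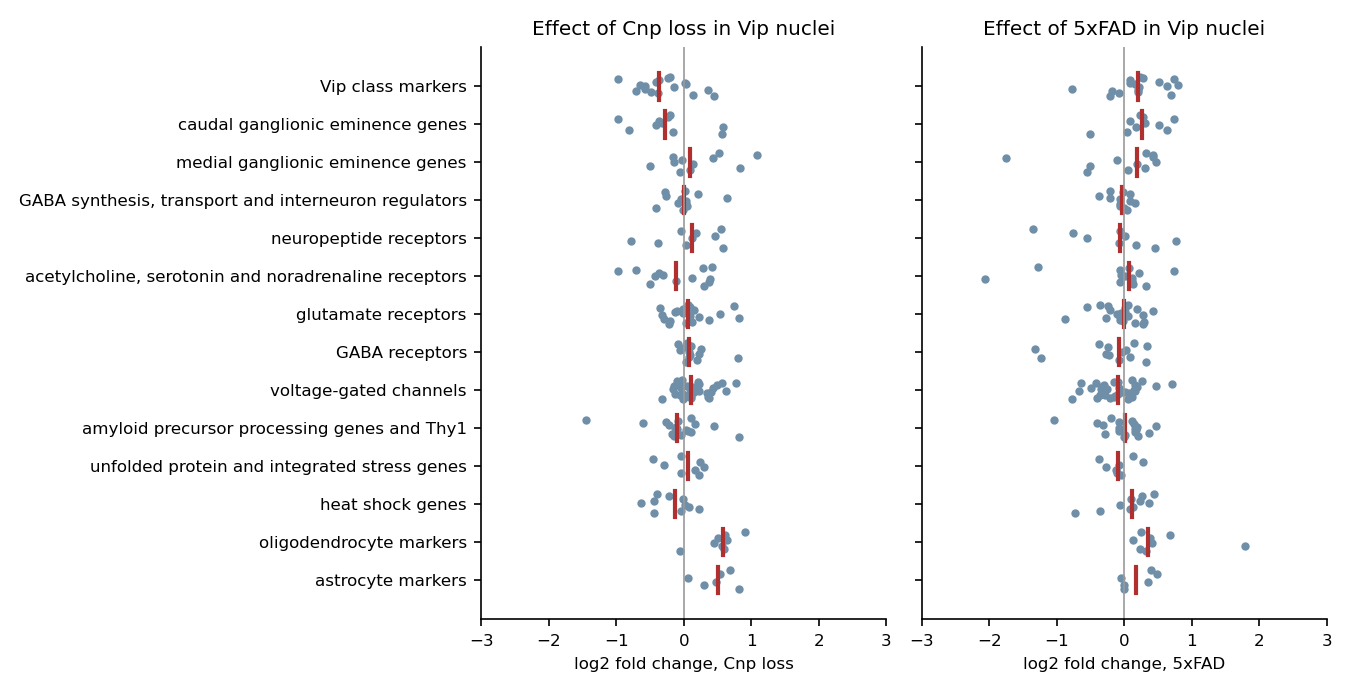
log2 fold change of tested members of gene lists in Vip nuclei for Cnp loss (left) and 5xFAD (right). Each point is a gene, with the median of each plotted list as a bar. Lists with few tested members, such as neuropeptides (3) and microglia markers (3), are not drawn. No plotted gene passed an adjusted p of 0.05, and the medians of the oligodendrocyte and astrocyte lists for Cnp loss are 0.59 and 0.51.

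Whether an effect differed between Vip nuclei and the mean of Pvalb and Sst nuclei was tested by class-by-genotype terms. Of 6316 genes, 2 were called for Cnp loss (0.0317%) and none for 5xFAD (0%; 288 genes had an unadjusted edgeR p under 0.05, and DESeq2 called none). One was 6530403H02Rik (log2 difference 3.84, SE 0.70, edgeR, adjusted p = 0.0417). The other was Lrmda, a leucine-rich repeat gene (log2 difference 2.66, SE 0.46, edgeR, adjusted p = 0.0389). In Vip nuclei Lrmda was at 28.9 and 11.7 CPM in WT, 34.9 and 86.3 in Cnp-/-, 76.4 and 64.1 in 5xFAD, and 109 and 61.8 in Cnp-/- 5xFAD, so the groups overlapped. It was not called for Cnp loss in Vip nuclei alone. Each term is the effect in Vip nuclei minus the mean effect in Pvalb and Sst nuclei, so it need not be a rise in Vip nuclei. The Pvalb and Sst levels of both genes are not reported here. With only the Vip nuclei of cluster 18, Lrmda was not called (edgeR, adjusted p = 0.408) and 6530403H02Rik could not be tested. The Lrmda call was lost with the same number of nuclei per class (log2 difference 2.27, edgeR, adjusted p = 0.866). The 6530403H02Rik call was lost without the library block (log2 difference 3.56, edgeR, adjusted p = 0.132). Lrmda also lost its call without 6 of the 8 libraries in turn, all but WT replicate 1 and 5xFAD replicate 2, with adjusted p-values between 0.0623 and 0.302 in edgeR. For 6530403H02Rik the gene was below the filter or the call was lost in 7 of these fits, all but that without 5xFAD replicate 2. Some Pvalb and Sst profiles behind these terms held few nuclei, down to 5 Sst nuclei in Cnp-/- 5xFAD replicate 1.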

How the data were processed

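Per the labels and the paper's methods, nuclei were sequenced by a droplet 3′ assay, aligned to mm10 with Cell Ranger 6.1.2 (submitters' processing notes), cleared of ambient RNA with CellBender, filtered on genes and UMIs, and clustered and annotated with Seurat. The deposited values are UMI counts per gene and nucleus without normalization. Intronic counting and the treatment of doublets are not given in the sources used here, and no doublet caller was run. The deposited percentage of mitochondrial UMIs per nucleus, computed by the authors, was used only to check Vip nuclei. The deposited table of microglia was not used.

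Counts of Vip, Pvalb and Sst nuclei were summed per library, the replicate. Genes were filtered by filterByExpr, scaled by TMM and tested two-sided with edgeR 4.0.16 in R 4.3.3, with Benjamini-Hochberg adjustment at 0.05. The genotype model had 1 mean per genotype, and the class model a library block. Shares were compared by exact permutation tests. Intervals and floors of 3 counts cover counting error only. The script was tested on simulated counts. Alternatives included DESeq2 1.42.0, limma 3.58.1 and each library left out. Genes are named if called and not overlapping between libraries (the 10 largest changes each way, or the 5 smallest p where under 5 passed), if called for a class-by-genotype term, as Cnp, App, Thy1, gate genes or Vip markers, or as called or highest members of the 23 lists. Others were named after their values were seen, and some members are not reported here. The nuclei, lists and tests were chosen with earlier results of these data known. Gene positions are those of the mm10 annotation used as reference.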

Additional observations from a re-analysis of the deposited data

Results flagged for a closer look

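The values below were picked out because 1 library lay far from the other 3 of its group of 4 (Dixon's 95% criterion) or because a difference between classes passed its test. Chance puts about 1 in 20 groups past this criterion, and 88 groups were examined.

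The share of Vip nuclei with a Cck UMI in WT replicate 2, 30.2%, lay far above the other libraries without 5xFAD. 6530403H02Rik in 5xFAD replicate 2, at 20.0 CPM, was the highest of the libraries without Cnp loss. Adamts19 was at 122 CPM in WT replicate 1, far above the other libraries without Cnp loss, and at 12.1 CPM in Cnp-/- 5xFAD replicate 1, the only library with 5xFAD where it had a UMI. Spon1, an extracellular matrix protein, was at 114 CPM in Cnp-/- replicate 2, apart from the other libraries without 5xFAD. App was at 624 CPM in Cnp-/- replicate 1, above the other libraries with Cnp loss. This library had the fewest Vip nuclei.

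The effect of Cnp loss differed between Vip nuclei and the mean of Pvalb and Sst nuclei for Lrmda (log2 difference 2.66) and for 6530403H02Rik (log2 difference 3.84), by the class-by-genotype term of edgeR.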

How the results depend on the processing

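The 20 genes named for Vip against Pvalb and Sst nuclei were picked for large changes without overlap. Wherever they were tested, they kept direction and significance, in 264 comparisons under other settings and in 312 with 1 library left out. Given how the genes were picked, this is a description. Counts over all genes were 409 higher and 342 lower of 6316 tested. With the same number of nuclei per class they were 223 and 208 of 4407 tested. With 1 library left out they ranged from 323 to 378 and from 282 to 341. Genotype calls moved more. For Cnp loss (2 genes), 56 were called without a filter on low counts, 3 by DESeq2, 10 with at least 3 Vip UMIs, 1 by limma-voom, 1 with the same number of nuclei per library, and 0 with the exclusion genes at 0 UMIs, without nuclei of 5 or more glial UMIs, or in cluster 18, with or without the replicate block. For 5xFAD (2 genes), 74 were called without the filter, 1 by DESeq2 and 1 with at least 3 Vip UMIs. With the same number of nuclei per library 3 were called. None was called by limma-voom, with the exclusion genes at 0 UMIs or without nuclei of 5 or more glial UMIs. In cluster 18 none was called either, with or without the block. The interaction gave 6 without the filter and 1 without nuclei of 5 or more glial UMIs, a setting that kept 174 of the 404 Vip nuclei. With 1 library left out, the counts were 0 to 22 for Cnp loss (22 without WT replicate 1), 0 to 54 for 5xFAD (54 without WT replicate 2, 33 without Cnp-/- replicate 1) and 0 to 1 for the interaction, the spread of a genotype left with a single library being taken from the rest. The class-by-Cnp term (2 genes) gave 53 without the filter, 49 without profiles under 20 nuclei, 1 without the library block, 0 with equal numbers of nuclei, 0 in cluster 18, and 0 to 5 with 1 library left out. The class-by-5xFAD term (0 genes) gave 34 without the filter, 1 without profiles under 20 nuclei and 0 to 1 with 1 library left out. The cause of these shifts was not tested. The cluster 18 settings and the profiles under 20 nuclei were chosen after seeing the data.

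The log2 fold change of Slit3, Cnp loss, changed from 1.12 to -0.11 in cluster 18 and to -0.0237 there with the replicate block. The Vip share for Cnp loss changed from 1.05 to -0.111 points over all neuron nuclei and -4.24 in cluster 18, and for 5xFAD from 4.27 to -2.78 in cluster 18. The Vip level turned to 3.78 CPM for Cnp loss and 12.2 CPM for 5xFAD over inhibitory nuclei. With 1 library left out, the share ranged from -0.488 to 2.26 points for Cnp loss and from 3.26 to 5.57 for 5xFAD, the Calb2 share from -9.08 to -4.70 and from -8.28 to -3.54, the Cck share from -10.6 to -0.523 and from -4.87 to 5.18, and the Vip level from -0.793 to 1.43 CPM and from -0.914 to 1.31 CPM.

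With the replicate number as a block, 2 genes were called for Cnp loss and 1 for 5xFAD, where Meis2 was lost (edgeR, adjusted p = 0.170). Replicate differences correlated between -0.144 and 0.0697 over 6 pairs of genotypes, none above 0.1, so the numbers were not taken to pair the libraries. The Vip profiles behind the genotype tests held only 27 to 65 nuclei. Of the 105 UMIs of 6530403H02Rik, 1 nucleus held 27 and another held 19. How far the calls turn on single nuclei was not tested.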
